A study of Homo sapiens with 4 samples.

Results

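Of the 10 genes described here, all report on ERK signalling and all but ETV4 and ETV5 hold it back. They were followed in UMSCC74B cells: the phosphatase genes DUSP4, DUSP5 and DUSP6, the Sprouty genes SPRY1, SPRY2 and SPRY4, the Spred genes SPRED1 and SPRED2, and the ETS factor genes ETV4 and ETV5. They were chosen by name, and all 10 were found among the 29655 distinct gene names of the count tables. UMSCC74B is an established cell line from head and neck squamous cell carcinoma (HNSCC). RNA-seq was performed on total RNA from 2 libraries of cells given a control shRNA plasmid, labelled WT, and from 2 libraries of cells given a PRMT5 shRNA plasmid, labelled PRMT5 KD. All cells were kept for 72 h after delivery, which the labels describe as plasmid transfection and the methods of the study as lentiviral particles. Neither source says that the libraries came from separate cultures, so the p-values measure the spread between these libraries, which may be technical.

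ERK is the last kinase of a relay that runs from growth factor receptors through RAS, RAF and MEK. Active ERK switches on genes whose products act back on the relay, and the transcripts of these genes are widely read as a measure of pathway output. DUSP proteins remove the activating phosphates from MAP kinases, Sprouty and Spred proteins dampen the steps around RAS and RAF, and ETV4 and ETV5 are transcription factors of the PEA3 group that carry the signal to further genes. In squamous carcinoma cells the relay is commonly driven by the EGF receptor.

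Totals ran from 52185289 to 65964558 estimated counts per library, with 71.5% to 81.3% of them in protein-coding genes. Ribosomal RNA names took 15.3% and 14.2% in control, and 26.3% and 18.1% in PRMT5 KD replicates 1 and 2. The PRMT5 transcript was examined first, because the shRNA targets it. It measured 94.3 and 84.3 CPM in control, against 132 and 150 CPM where a knockdown was labelled. CPM are counts relative to library size, scaled by the TMM method, where library size is the sum over the protein-coding genes tested. The log2 fold change (log2FC) was 0.66 with a standard error (SE) of 0.12 and a false discovery rate, the Benjamini-Hochberg adjusted p, of FDR = 0.00547 by the quasi-likelihood test of edgeR. The targeted transcript was higher in both libraries labelled PRMT5 KD, opposite to the label, and each direction given here follows the labels. The study reports that an immunoblot bore out the silencing by the PRMT5 shRNA at the protein level, which is not analysed here. Without control replicate 2 the value was 0.58. Here and below, a fit without 1 library takes its spread from the group that keeps 2. A call gained or lost in such a fit is therefore a description.

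Markers were used to check the labelled cell type. Of 8 squamous epithelial markers TP63, DSP and JUP were high enough to test, TP63 in control only. KRT5, KRT14 and KRT6A, keratins of squamous epithelium, were at 0.46 CPM or less in every library, so the keratins of the labelled cell type were at or near 0, and the identity of the line was not tested here. The summed level of the 8 markers was 128 and 152 CPM in control and 68.4 and 97.4 CPM with the PRMT5 KD label. JUP carried that sum, from 95.5 and 123 to 37.3 and 44.8 CPM, while DSP, KRT14, KRT17 and SFN were each higher in both labelled libraries than in both controls. The 7 fibroblast markers summed to 633 and 734 CPM in control and to 87.9 and 97.4 CPM with the PRMT5 KD label, and the 5 that passed the filter on low values in both groups were all called lower. Among 5 leukocyte markers, CD3E had 0 counts in all libraries, which allows up to 3 counts in each, and CD68, also a gene of lysosomes in many cells, carried the sum, which ran from 94.8 to 113 CPM in control and from 153 to 170 CPM under the label. The 4 endothelial markers summed to 10.9 and 14.8 CPM and to 2.1 and 1.15 CPM. Fewer cells of a type and less RNA per cell cannot be told apart in bulk libraries, and the part these shifts have in the results on the ERK genes was not tested.

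The question asked of the 10 genes was whether their transcripts differed with the PRMT5 KD label. DUSP5 rose about 3-fold, ETV4 rose modestly, and DUSP4 and SPRED1 fell modestly. No call was made on DUSP6, SPRY2, SPRY4, SPRED2 or ETV5, and SPRY1 was too low to be tested. A call here means an FDR below 0.05 together with a log2FC of 0.5 or more in size, by the same edgeR test, with p-values adjusted over the 11884 protein-coding genes that passed the filter on low values (in at least 1 group, and for each of the 9 members in both). Of the 9 members tested, 2 were called higher and 2 lower, which is 44.4%, against 45.6% of all genes tested. The shares of all genes called were 21.2% higher and 24.4% lower. Of the genes that passed in both groups, as the 9 did, 43.2% were called (21.1% higher, 22.1% lower). The members were thus called about as often as all genes in these libraries. The median log2FC of the 9 members was 0.21, beside -0.01 over all genes. The CPM ranges of the groups did not overlap for 7 of the 9, or 77.8%, where 80.5% of all genes did not overlap.

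**Figure D1:**
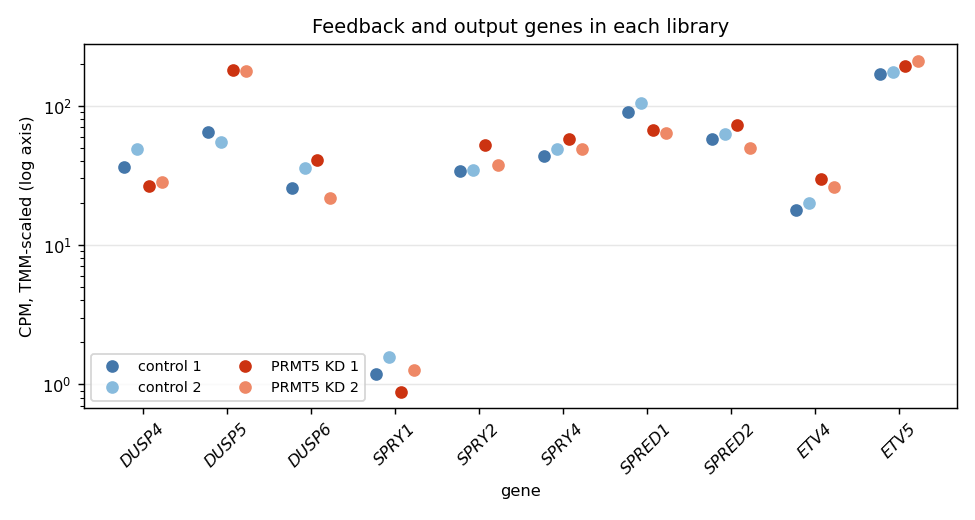
Level of each of the 10 genes in each of the 4 libraries, as TMM-scaled CPM on a log axis, with one point per library. The DUSP5 points of the libraries labelled PRMT5 KD, at 179 and 177 CPM, lie well above the control points at 64.3 and 54.8 CPM, and SPRY1 lies near 1 CPM throughout.

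DUSP5, DUSP4 and DUSP6 encode MAP kinase phosphatases that ERK itself induces. DUSP5 is a nuclear phosphatase selective for ERK, DUSP4 a nuclear phosphatase that also acts on JNK, and DUSP6 a cytoplasmic phosphatase selective for ERK. DUSP5 was called higher and DUSP4 lower, and DUSP6 was not called.

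DUSP5 is on the plus strand of chromosome 10 (110497907 to 110511533; positions are those of GRCh38 throughout). Its counts were 2542 and 2741 in control, against 8513 and 8453 with the PRMT5 KD label, or 64.3 and 54.8 CPM against 179 and 177 CPM. Both labelled libraries were high and nearly level with each other, and the groups were far apart. The means were 59.5 ± 6.67 CPM and 178 ± 1.49 CPM (SD, n = 2 each), or 2.99-fold apart (log2FC 1.58, SE 0.12, FDR = 0.000363). Of all genes tested, 472 (3.97%) rose by as much or more. DUSP5 was called higher in each of the 15 alternative analyses, in which its log2FC ran from 1.47 to 1.76. The pseudogene DUSP5P1, on the list of non-coding partners of the members, went the other way, from 10.7 and 9.4 CPM to 2.23 and 2.74 CPM. It entered a test only when all gene names were fitted (FDR = 0.000738), and how the estimated counts divided shared reads between the gene and its pseudogene is not known. No other partner on that list was matched in the tables.

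DUSP4 lies on the minus strand of chromosome 8 from 29333064 to 29350684. Its level was 36.2 and 48.7 CPM in control, against 26.5 and 28.4 CPM with the PRMT5 KD label. The labelled libraries were close to each other and below both controls, while the controls stood apart from one another, and only 8.08% of genes tested had a wider gap between the 2 controls. DUSP4 fell (log2FC -0.63, SE 0.17, FDR = 0.0192), from 42.5 ± 8.87 to 27.5 ± 1.35 CPM (SD, n = 2 each). Without control replicate 2, the higher of the pair, it was -0.40 with an FDR of 0.141. The call was also lost when libraries were scaled by total counts of the tested genes, without TMM (-0.45, FDR = 0.0566). It was lost too after exon length and GC content were corrected for (-0.47, FDR = 0.0517).

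DUSP6 lies on the minus strand of chromosome 12 from 89347235 to 89352501. It measured 25.6 and 35.7 CPM in control, and 40.4 and 21.6 CPM in PRMT5 KD replicates 1 and 2. One labelled library was above both controls and the other below both, so the groups overlapped fully. Only 3.11% of genes tested differed more between the 2 labelled libraries, which stood 1.87-fold apart here. The log2FC was 0.02 with a 95% interval from -0.85 to 0.89 (FDR = 0.974), wide enough to hold a change in either direction. It was -0.47 (FDR = 0.0913) without PRMT5 KD replicate 1, the library with the largest share of ribosomal RNA, and 0.41 (FDR = 0.123) without PRMT5 KD replicate 2.

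**Figure D2:**
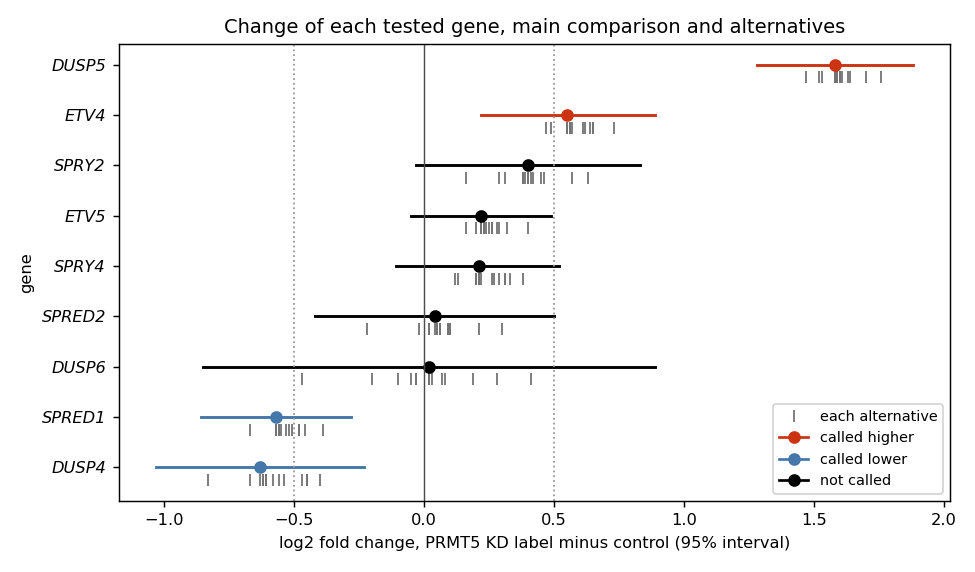
Log2 fold change of the 9 tested genes, PRMT5 KD label minus control, with 95% intervals from edgeR (points and bars) and the values of the alternatives (grey ticks). Dotted lines mark the threshold of 0.5 in either direction, which only DUSP5 cleared with its whole interval (1.28 to 1.88).

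Sprouty proteins are feedback inhibitors that act between growth factor receptors and RAF. SPRY2 and SPRY4 were well expressed and SPRY1 was scarce. Neither SPRY2 nor SPRY4 was called, and SPRY1 was too low to be tested.

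SPRY2, on the minus strand of chromosome 13 from 80335976 to 80341126, had 33.8 and 34.3 CPM in control, against 52.5 and 37.2 CPM with the PRMT5 KD label. The controls were almost equal, and both labelled libraries were higher, replicate 1, which had the largest share of ribosomal RNA (26.3%), by far more than replicate 2. The part of that share in the values of SPRY2, DUSP6 and SPRED2 was not tested. The log2FC was 0.40 (95% interval -0.03 to 0.83, FDR = 0.103). It depended on the labelled library kept, being 0.16 without PRMT5 KD replicate 1 and 0.63 without PRMT5 KD replicate 2. Total-count scaling gave a call (0.57, FDR = 0.0221).

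SPRY4, on the minus strand of chromosome 5 from 142310427 to 142326455, had 43.8 and 48.9 CPM in control, against 57.9 and 49 CPM with the label. The lower labelled library was level with the higher control. The log2FC was 0.21 (95% interval -0.11 to 0.52, FDR = 0.229). SPRY1, on the plus strand of chromosome 4 from 123396795 to 123403760, was counted 47 and 78 times in control and 42 and 60 times in the labelled pair. This gave 0.283 and 0.367 RPKM in control and 0.231 and 0.344 RPKM in the labelled pair, below the minimum of 0.5 that testing required. RPKM are reads relative to exon length and library size, here the sum over all protein-coding genes without TMM scaling. The groups overlapped. Where edgeR's own filter let it in, its log2FC was -0.30 (SE 0.36, FDR = 0.52).

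Spred proteins are relatives of Sprouty that hold neurofibromin, the RAS brake encoded by NF1, at the membrane. SPRED1 fell and SPRED2 did not pass the test. SPRED1 lies on the plus strand of chromosome 15 from 38252836 to 38357249 and had 89.5 and 104 CPM in control, against 66.5 and 63.5 CPM with the PRMT5 KD label. The groups did not overlap, and the labelled libraries were again close together. From 96.6 ± 10 to 65 ± 2.16 CPM (SD, n = 2 each), SPRED1 fell (log2FC -0.57, SE 0.12, FDR = 0.00832). It fell short of the fold change threshold with total-count scaling (-0.39, FDR = 0.0275) and after the length and GC correction (-0.48, FDR = 0.0164), and lost its call without control replicate 2 (-0.46, FDR = 0.0792).

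SPRED2, on the minus strand of chromosome 2 from 65310851 to 65432637, had 57.3 and 62.2 CPM in control, against 73 and 49.9 CPM with the label. As with DUSP6, replicate 1 of the labelled pair was above both controls and replicate 2 below both. The log2FC was 0.04 (95% interval -0.42 to 0.50, FDR = 0.873). It was -0.22 (FDR = 0.21) without PRMT5 KD replicate 1 and 0.30 (FDR = 0.0906) without PRMT5 KD replicate 2.

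Start-site windows from RefSeq (GRCh38.p14) ran from 250 bases before to 50 bases after an annotated start. For 6 of the 10 members, namely DUSP6, SPRY1, SPRY2, SPRY4, SPRED1 and SPRED2, 10 windows were searched. DUSP4 was left out of this search by choice, and no window was found for DUSP5, ETV4 or ETV5. Both strands were searched for the AP-1 motif TGANTCA, for the octamers TGAATGAA and TGAATGGA bound by the repressor CIC, and for the ETS motif ACCGGAAG. No match overlapped another. Of all 35116 windows of the table, 7.71% held the AP-1 motif, 1.65% and 1.03% the octamers and 2.17% the ETS motif. Of the 10 member windows searched, 1 held a match. It was the downstream start of SPRED2, with AP-1 matches beginning at -6 and 34 bases from the start. The windows of the Spred pair are shown because SPRED1 was called and SPRED2 was not, a difference that was not itself tested. They are written 5′ to 3′ on the strand of the gene, with motif matches in capitals. They are SPRED1 at chr15:38252586-38252885 (plus strand, 76.3% GC), the upstream start of SPRED2 at chr2:65432550-65432849 (minus strand, 60% GC) and its downstream start at chr2:65366729-65367028 (minus strand, 39.3% GC).
SPRED1: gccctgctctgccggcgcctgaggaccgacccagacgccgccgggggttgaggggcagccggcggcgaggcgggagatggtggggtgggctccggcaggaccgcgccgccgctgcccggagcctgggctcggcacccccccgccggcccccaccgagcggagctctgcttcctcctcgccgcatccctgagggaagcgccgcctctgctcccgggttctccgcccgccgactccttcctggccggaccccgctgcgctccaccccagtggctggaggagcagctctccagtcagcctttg
SPRED2 upstream: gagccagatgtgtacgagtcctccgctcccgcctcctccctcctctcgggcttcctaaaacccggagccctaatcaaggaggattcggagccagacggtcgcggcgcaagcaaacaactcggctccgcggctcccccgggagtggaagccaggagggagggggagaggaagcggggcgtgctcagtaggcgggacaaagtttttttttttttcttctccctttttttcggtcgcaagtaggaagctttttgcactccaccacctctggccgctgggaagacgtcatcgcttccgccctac
SPRED2 downstream: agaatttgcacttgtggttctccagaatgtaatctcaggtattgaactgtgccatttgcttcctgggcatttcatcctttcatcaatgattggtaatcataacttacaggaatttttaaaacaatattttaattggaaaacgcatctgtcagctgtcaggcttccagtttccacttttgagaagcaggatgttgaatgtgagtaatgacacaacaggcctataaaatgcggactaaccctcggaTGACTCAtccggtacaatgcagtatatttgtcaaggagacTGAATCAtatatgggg
The SPRED1 window held none of these motifs, which says only that these letters are not in those 300 bases. The counts are per gene and do not tell the starts of SPRED2 apart.

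ETV4 and ETV5 are ETS factors whose transcripts rise with ERK activity. ETV4 was called higher and ETV5 was not called. ETV4, on the minus strand of chromosome 17 from 43527844 to 43579620, had 17.9 and 20.1 CPM in control, against 29.8 and 26 CPM with the PRMT5 KD label. Both labelled libraries lay above both controls. From 19 ± 1.54 to 27.9 ± 2.65 CPM (SD, n = 2 each), ETV4 rose (log2FC 0.55, SE 0.14, FDR = 0.0164), just past the fold change threshold. The call was lost without control replicate 1 (0.47, FDR = 0.123), without control replicate 2 (0.64, FDR = 0.0728) and without PRMT5 KD replicate 1 (0.49, FDR = 0.0184), and was kept in the other 12 alternatives.

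ETV5, on the minus strand of chromosome 3 from 186046314 to 186110318, had 170 and 176 CPM in control, against 192 and 211 CPM with the label. The groups did not overlap, with a small distance between them. The log2FC was 0.22 (95% interval -0.05 to 0.49, FDR = 0.139), so that the interval ended below the fold change threshold.

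Levels of different genes were compared per length, as TMM-scaled RPKM over the union of annotated exons. In control, ETV5 led with a mean of 29.9 RPKM, followed by DUSP5 at 23.5, SPRED1 at 12.5, SPRED2 at 10.9 and SPRY2 at 10.6 RPKM. DUSP6 (7.93 RPKM), SPRY4 (7.07), DUSP4 (5.84) and ETV4 (5.41) came next, each with library values that overlapped those of its neighbour, and SPRY1 was last at 0.347 RPKM. SPRED2 and SPRY2 overlapped as well. With the PRMT5 KD label DUSP5 led at 70.2 RPKM, without overlap with ETV5 at 34.9 RPKM. SPRY2 at 14 and SPRED2 at 11.2 RPKM came next, and their library values overlapped. DUSP5 then stood at the 96.8 percentile of all genes tested, from the 86.5 percentile in control. SPRED1, SPRY4, DUSP6 and ETV4 lay between 8.39 and 7.94 RPKM with overlapping libraries, and DUSP4 was next to last at 3.78 RPKM.

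Shares within a family do not depend on how libraries are scaled to each other. Among the 3 DUSP genes, DUSP5 took 68.6% and 57.6% of the summed RPKM in control and 83.3% and 88% with the PRMT5 KD label. DUSP4 went from 13.5% and 17.8% to 4.31% and 4.93%. The ratio of DUSP5 to DUSP4 per length was 5.09 and 3.23 in control and 19.4 and 17.8 under the label. The summed DUSP level was 36.9 and 37.6 RPKM against 84.7 and 79.3 RPKM, which was carried by DUSP5. In the Spred pair, SPRED1 made up 52.6% and 54.2% in control and 39.3% and 47.4% under the label, so SPRED2 was the larger part in both labelled libraries. The Sprouty and ETV families kept their order in every library, with SPRY2 at 57.6% to 64.4% and ETV5 at 79.7% to 85.2%.

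**Figure D3:**
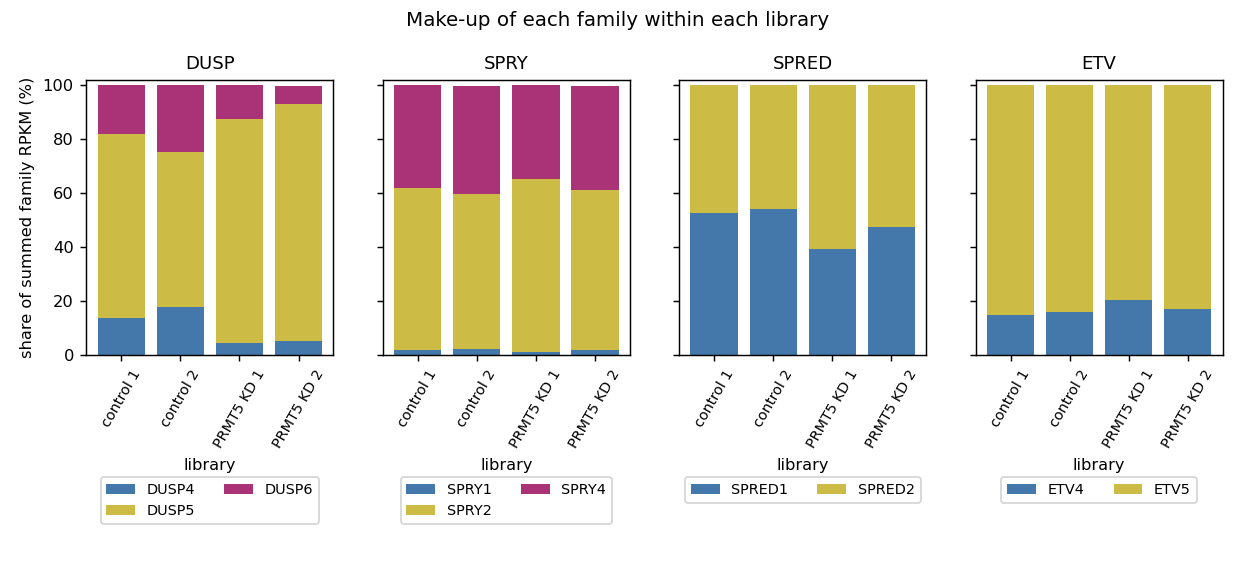
Share of each gene in the summed TMM-scaled RPKM of its family, one bar per library. DUSP5 grows from 68.6% and 57.6% of the DUSP bars in control to 83.3% and 88% with the PRMT5 KD label, while the SPRY bars change little, with SPRY2 between 57.6% and 64.4%.

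The other genes of the pathway were taken from 5 lists of 56 genes, 54 of them tested. DUSP2, IL17RD and EPHA4 passed the filter on low values in 1 group only and are left out of the counts and medians of the lists. Of the other 51, 8 were called higher (15.7%) and 11 lower (21.6%), with a median log2FC of -0.25. Of all genes that passed in both groups, 21.1% were called higher and 22.1% lower, with a median of 0.01. The lists, like the members, were written with earlier results of these data known.

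Of 19 tested genes of the relay itself, from the adaptor GRB2 to the ERK-activated kinase RPS6KA3, 2 were called higher and 3 lower, and the median was -0.28. The shares were 10.5% and 15.8%, beside 21.1% and 22.1% of all genes that passed in both groups. MAP2K1, which encodes the ERK kinase MEK1, rose from 64.1 and 59.6 to 131 and 113 CPM (log2FC 0.98, FDR = 0.00133). MAPK3, which encodes ERK1, fell from 44.5 and 53.2 to 21.8 and 20.7 CPM (-1.20, FDR = 0.000914). HRAS rose (0.96, FDR = 0.004), and the adaptors SHC1 (-0.76, FDR = 0.00691) and GAB1 (-0.56, FDR = 0.0144) fell. The calls on SHC1 (-0.68, FDR = 0.0719) and GAB1 (-0.45, FDR = 0.125) were lost without control replicate 2, which left 1 gene called lower. Without PRMT5 KD replicate 1, GAB1 was at -0.48 and 5 genes were called lower. GAB1 also lost its call after the length and GC correction (-0.36).

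Of 5 MAP kinase phosphatases outside the members that passed the filter in both groups, 3 were called higher and 1 lower, with a median of 0.70. The shares were 60% and 20%, beside 21.1% and 22.1% of all genes that passed in both groups. DUSP2, a nuclear phosphatase, had 23 and 23 counts in control and 407 and 332 in the labelled pair. It passed the filter through the labelled libraries alone, which favours genes that are higher there, so these counts are a description. DUSP10, which acts mainly on JNK and p38, rose from 17.3 and 15.2 to 141 and 81.9 CPM (log2FC 2.78, FDR = 0.00134). DUSP7, the close cytoplasmic relative of DUSP6, rose from 19 and 20.4 to 40.7 and 41 CPM (1.05, FDR = 0.000899). DUSP1, an early response gene, was called too, from 90.7 and 59.1 to 126 and 118 CPM (0.70, FDR = 0.033), but not without control replicate 2 (0.43) or either labelled library (0.69 and 0.75, FDR = 0.124 and 0.106), nor after the length and GC correction (0.56, FDR = 0.0722). DUSP8 was called lower (-1.30, FDR = 0.036), and moved to -0.85 without PRMT5 KD replicate 2. It lost the call, with a change of like size, without control replicate 1 (-1.10) or control replicate 2 (-1.48). The call was also lost with no filter on low values (-1.24, FDR = 0.0711). With each replicate 1 paired to the other group's replicate 2 as a block, it was lost too (-1.37, FDR = 0.0526). After the length and GC correction DUSP8 was not called (-1.04, FDR = 0.0661), but it was when the replicate block was added (-1.12, FDR = 0.00919).

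Of 6 further feedback and output genes that passed in both groups, 1 was called higher and 1 lower, with a median of -0.16. Each share was 16.7%, beside 21.1% higher and 22.1% lower of all genes that passed in both groups. CCND1, which encodes cyclin D1, rose from 133 and 162 to 449 and 286 CPM (log2FC 1.32, FDR = 0.00651), with 1.18 and an FDR of 0.0519, and so no call, without control replicate 1. IL17RD, which encodes the ERK inhibitor SEF, had 18.8 and 20.9 CPM in control and 4.12 and 3.98 CPM in the labelled pair, a description, since it passed through the controls alone. SPRY3, the Sprouty gene outside the members, fell from 20.3 and 19.4 to 9.55 and 9.21 CPM (-1.08, FDR = 0.00126). The Spred and PEA3 relatives SPRED3 (-0.49, FDR = 0.0536) and ETV1 (0.02, FDR = 0.959) were not called.

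Of 9 RAS brakes, 0 were called higher and 5 lower (55.6%), with a median of -0.59. Over all genes that passed in both groups the shares were 21.1% and 22.1%, with a median of 0.01. RASA3, a RAS GTPase-activating protein gene, fell from 110 and 131 to 65.2 and 58.8 CPM (log2FC -0.96, FDR = 0.00172). NF1, whose product the Spred proteins bring to the membrane, fell from 442 and 434 to 288 and 247 CPM (-0.71, FDR = 0.0055), and CBL, a ubiquitin ligase for receptors, fell as well (-0.76, FDR = 0.0168). LZTR1, an adaptor for RAS degradation (-0.71, FDR = 0.00348), and RASA1, another RAS GTPase-activating protein gene (-0.59, FDR = 0.00585), made up the 5. After the length and GC correction RASA1 and RASA3 were called lower and RASAL2, not called before (0.20), was called higher (0.62, FDR = 0.00568), with NF1 at -0.17 (FDR = 0.288), LZTR1 at -0.31 (FDR = 0.0724) and CBL at -0.47 (FDR = 0.0643). The count was 3 without control replicate 1, when CBL (-0.65, FDR = 0.108) and RASA1 (-0.54, FDR = 0.0537) were lost, and 3 without control replicate 2, when CBL (-0.87, FDR = 0.0628) and NF1 (-0.73, FDR = 0.0519) were lost with no smaller change. RASA1 was also lost with total-count scaling (-0.41). Of 12 transcription factors and regulators of ERK outputs, 2 were called higher (16.7%) and 1 lower (8.33%), with a median of -0.16, beside the same shares of all genes. ETS2 (0.73, FDR = 0.0086) and ELK1 (0.66, FDR = 0.0223) rose and ELK4 (-0.70, FDR = 0.00407, or -0.42 and no call after the length and GC correction) fell. Without control replicate 2 neither ETS2 (0.55, FDR = 0.0744) nor ELK1 (0.65, FDR = 0.128) was called, ELK1 was not called without control replicate 1 (0.67, FDR = 0.114) or PRMT5 KD replicate 1 (0.42), and 3 genes were called lower without the latter. CIC, the repressor of ETV4, ETV5 and DUSP6, met the FDR but missed the required size of change (log2FC -0.36, FDR = 0.0349).

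**Figure D4:**
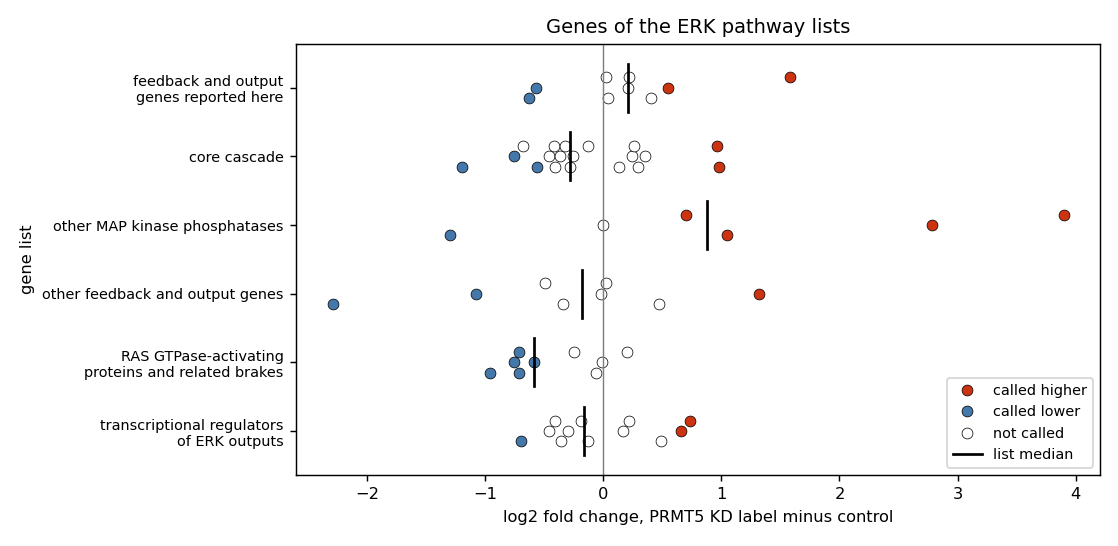
Log2 fold change, PRMT5 KD label minus control, of the tested genes of each ERK pathway list, coloured by call, with the list median as a bar. The other MAP kinase phosphatases have a median of 0.88 with DUSP2 (0.70 without it) and the RAS brakes one of -0.59, against 0.21 for the 9 members.

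The genes whose pattern came nearest to that of DUSP5, by Euclidean distance of centred log2 CPM over the 4 libraries, were ZNF85 (0.0423), NR2C2AP (0.0519) and PSMC3IP (0.0615). ZNF85 went from 3.29 and 2.76 to 9.48 and 9.19 CPM. Their log2FC values were 1.63, 1.63 and 1.65. All of these genes were chosen for likeness over the same 4 libraries, so their values are a description.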

How the data were processed

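RNA-seq of 4 UMSCC74B libraries, 2 control and 2 labelled PRMT5 KD, was analysed from per-gene tables. The authors deposited expected counts (estimated counts per gene, with decimals and without normalization), 1 table per library. The submitters' processing notes name Trim Galore, STAR, Salmon and GRCh38. The methods of the study name STAR and FeatureCounts on protein-coding genes, whereas the tables also list non-coding names and hold decimals. The library kit keeps strand, and whether the counting used it is not given in the sources used here.

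Names turned into dates (28) were left out, and entries of the same name were summed. The 29655 names were matched to GENCODE release 44 by symbol (21672), RefSeq number (1118) or a unique synonym (1544), and 18900 were protein-coding. Estimated counts were rounded. Protein-coding genes with at least 0.5 RPKM in both libraries of either group were fitted with edgeR 4.0.16 (R 4.3.3, TMM factors, robust quasi-likelihood, no replicate term) with Benjamini-Hochberg adjustment. Calls needed an FDR below 0.05 and a log2FC of 0.5 or more in size. Each standard error was computed as the log2FC over the square root of F. The procedure was tested on simulated data. At 2 libraries against 2 the smallest exact two-sided permutation p is 0.333, so each FDR comes from the model across all genes, and the limit given for a count of 0 covers counting error alone.

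The alternatives were DESeq2 1.42.0, other scalings, filters and gene sets, non-robust dispersion, a block on the replicate number, offsets fitted on exon length and GC content by splines (4 degrees of freedom), and fits without 1 library. The FDRs and calls of a fit without 1 library hold no replicate spread of the group that lost it. Named were all members, PRMT5, up to 3 called genes per list and direction by size of change, and the 3 genes nearest to DUSP5. DUSP1, LZTR1, RASA1, RASAL2, SPRED3, EPHA4, ETV1, CIC, DUSP5P1 and the Spred windows were picked after values were known. The members and lists were chosen with earlier results of these data known.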

Additional observations from a re-analysis of the deposited data

How the results depend on the processing

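DUSP5 kept its direction and its call in all 15 alternatives, while SPRY4 and ETV5 kept their direction and were called in none. In that order, the log2 fold changes ran from 1.47 to 1.76, 0.12 to 0.38 and 0.16 to 0.40. With total-count scaling SPRY4 (0.38, FDR = 0.0386) and ETV5 (0.40, FDR = 0.027) met the FDR but missed the required size of change. Scaling by the total counts of the tested genes, without TMM, moved the median over all genes to 0.17 (log2). The higher share of calls went from 46.5% to 61.4% (3505 higher, 2200 lower). DUSP4 (-0.45) and SPRED1 (-0.39) then lost their calls, SPRY2 gained one (0.57) and 0 members were called lower. The length and GC correction took the calls from DUSP4 (-0.47) and SPRED1 (-0.48), left 0 members called lower, and put DUSP6 at -0.05, while over all genes it moved the median to 0.06 and the calls to 2858 higher and 2494 lower (53.4% higher). With the replicate block added, these were -0.45, -0.48, 0 and -0.10. Of all 54 tested genes of the other lists, those called lower went from 12 to 6, and to 7 with the block. The causes were not tested.

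The replicate numbers name libraries only, and the deviations of libraries with the same number correlated at -0.101 across genes. The replicate block alone gave 2405 genes higher and 2787 lower over all genes (2521 and 2895 without it), put DUSP6 at -0.03 and changed no other direction or call of a member. The crossed pairing, added after the data had been seen, gave 2545 higher and 2937 lower, with DUSP6 at -0.03.

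With 1 library left out, log2 fold changes ran from -0.83 to -0.40 for DUSP4, from -0.47 to 0.41 for DUSP6, from 0.16 to 0.63 for SPRY2, from -0.67 to -0.46 for SPRED1, from -0.22 to 0.30 for SPRED2, from 0.47 to 0.65 for ETV4 and from 0.57 to 0.78 for PRMT5. The members called ran from 1 to 3 higher and from 0 to 2 lower, the other list genes from 6 to 9 higher and from 7 to 17 lower, and all genes from 1349 to 2764 higher and from 1760 to 2949 lower. A fold change threshold of 1 left, by its construction, 1 member higher (DUSP5) and 0 lower. It left 4 and 4 other list genes, and 1032 and 1529 of all genes, higher and lower. DUSP2 is among the 4 higher and IL17RD among the 4 lower, and each passed the filter on low values in 1 group only. All counts of other list genes in this section cover the 54 tested, these and EPHA4 included. The tested members had at least 709 counts in each library, and SPRY1, under the filter on low values, had 78 or fewer. No fit at reduced depth was run.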
